A study of Saccharomyces cerevisiae and Neurospora crassa and Schizosaccharomyces pombe with 13 samples.

Results

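The filamentous fungus Neurospora crassa guards its genome against repeated and foreign DNA with several silencing systems, and 8 genes of these systems are described here from the deposited gene annotation. They are qde-1 (NCU07534), qde-2 (NCU04730), qde-3 (NCU08598), dcl-1 (NCU08270) and dcl-2 (NCU06766), which act in quelling and small RNA production, sad-1 (NCU02178) and sms-2 (NCU09434), which act in meiotic silencing, and rid (NCU02034), which acts in repeat-induced point mutation. The genes were chosen by name and not by a measured value. All 8 identifiers were found in the annotation, among 9730 genes on 7 sequences. The annotation carries identifiers but no gene names, so the names were assigned by identifier.

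The study mapped nucleosomes with MNase-seq, which sequences the DNA fragments that nucleosomes shield from micrococcal nuclease, called footprints. It has 13 libraries, namely 5 of isw2 and 5 of wild-type Saccharomyces cerevisiae of the W303 background, 1 of wild-type Schizosaccharomyces pombe and 2 of wild-type N. crassa. The N. crassa cells were conidia, the asexual spores, that had grown for 3.5 h until over 70% had germinated, and their footprints were prepared with the rapid protocol after 10 min in 1% formaldehyde. The annotation belongs to no library, so the values below are lengths and distances in bp, and footprints over these genes were not analysed here.

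In quelling, repeated transgenes give rise to aberrant RNA that is copied into double-stranded RNA, cut into small RNAs by Dicer enzymes and loaded onto an Argonaute protein, which then directs the loss of matching transcripts in vegetative cells. Meiotic silencing by unpaired DNA uses related enzymes in the sexual phase, when a stretch of DNA has no partner on the homologous chromosome. Repeat-induced point mutation also belongs to the sexual phase and turns C into T in duplicated DNA. It depends on a protein that resembles DNA methyltransferases. The genes of small RNA silencing are paralogues across the first and the second of these systems.

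All 8 genes had long coding regions for this annotation, and their exon numbers ran from 1 in sms-2 to 4 in dcl-2. Coding length, counted without the stop codon, ran from 2511 bp in rid to 6990 bp in qde-3, with a median of 4197 bp in the 8 genes and 1260 bp in all 9730 genes (quartiles 750 and 1932 bp). It lay above the upper quartile in 8 of 8 genes, against 24.9% of all genes, and above the 90th percentile of 2880 bp in 7 of 8, against 9.97%. The exception was rid. The median exon number was 2 both in the 8 genes and in all genes, while the 4 exons of dcl-2 were more than in 76.2% of all genes. The 8 genes thus had 0.296 introns per kb of coding length at the median, against 1.12 in all genes, and 8 of 8 fell below the all-gene median, against 49.9% of all genes. Long genes in general had fewer introns per kb. Among the 2272 genes with at least 2000 bp of coding length, the median was 0.496, and 79.1% fell below the all-gene median. Against these long genes dcl-2, with 0.716 introns per kb, lay above the median, higher than 60.2% of them. This measure also counts introns in UTRs, and 2 of the 3 introns of dcl-2 lie in its 5' UTR. Its coding introns alone came to 0.239 per kb, more than in 23.3% of all genes. The annotation has no replicates and genes are not replicates of each other, so these values are set beside those of all genes as a description and carry no p-value.

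**Figure D1:**
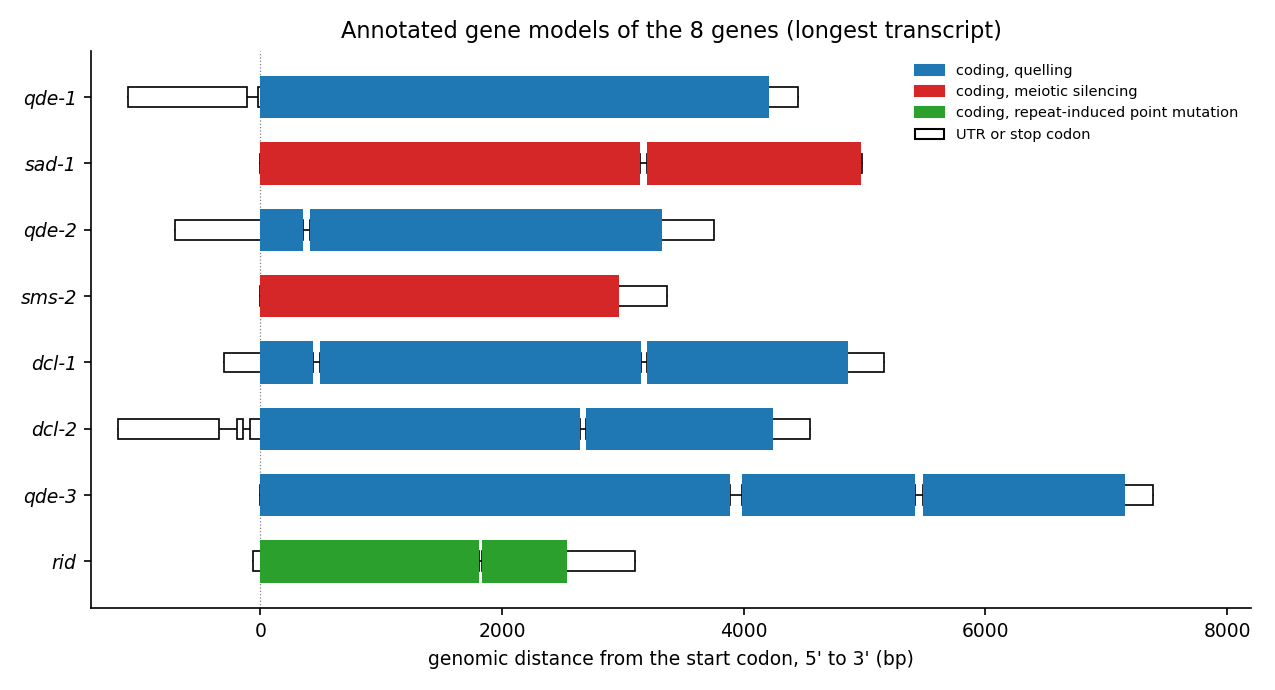
Gene models of the 8 genes, drawn to scale as the genomic distance from the start codon in bp, with the paralogues in neighbouring rows. Filled boxes are coding parts, open boxes are UTRs or stop codons and lines are introns. The coding region of qde-1 and of sms-2 is uninterrupted, sad-1 has no annotated UTR, and dcl-2 has 2 introns before its start codon.

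**Figure D2:**
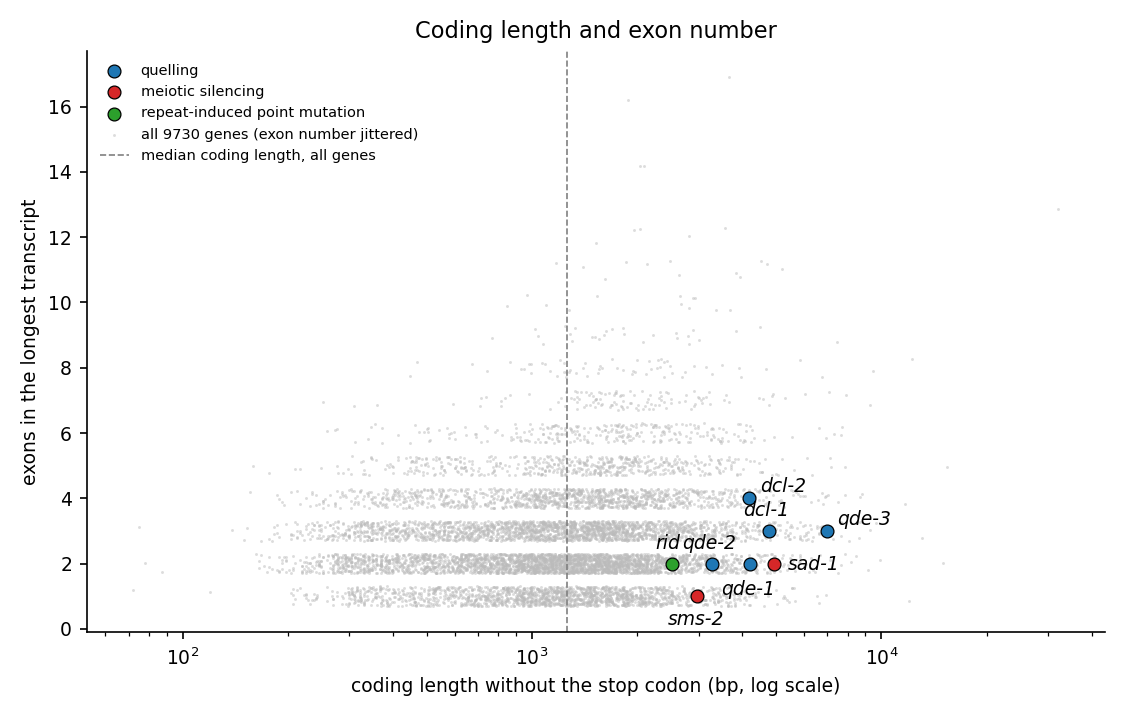
Coding length in bp, on a log scale, against the number of exons of the longest transcript, for the 8 genes (coloured) and all 9730 genes (grey, with the exon number jittered). The 8 genes lie to the right of the all-gene median of 1260 bp and have between 1 and 4 exons.

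The RNA-dependent RNA polymerases are qde-1, which makes aberrant and double-stranded RNA in quelling, and sad-1, which copies the RNA of unpaired DNA in meiotic silencing. On the plus strand of sequence 3, qde-1 occupies positions 4461937 to 4467476, a span of 5540 bp. It codes for 1402 residues in 4206 bp, a longer coding length than in 97.1% of all genes. On the plus strand of sequence 1, sad-1 occupies positions 969499 to 974473, a span of 4975 bp. Its 1638 residues in 4914 bp make it the longer protein of the pair, and its coding length exceeded that of 98.3% of genes. The difference, qde-1 minus sad-1, was -708 bp or -236 residues, although the span of qde-1 was the longer one by 565 bp.

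The span of qde-1 includes UTRs, while that of sad-1 includes none. The transcribed ends of sad-1 are not given, so the spans are not like for like. The annotation gives qde-1 a 5' UTR of 1005 bp, longer than 94.1% of the 7657 annotated ones, and a 3' UTR of 237 bp. For sad-1 it gives neither, so the coding region fills 98.8% of the span, against 75.9% in qde-1. Both genes have 2 exons, but their introns lie in different places. The only intron of qde-1, 89 bp long, follows a non-coding first exon of 984 bp and precedes the start codon, so all 4206 coding bp lie in an exon of 4467 bp. The only intron of sad-1, 58 bp long, interrupts the coding region after 3142 bp, at 63.9% of its length.

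Argonaute proteins bind small RNAs and use them to find their targets. The quelling Argonaute qde-2 lies on the minus strand of sequence 6 at positions 574929 to 579388 and codes for 1089 residues in 3267 bp. The Argonaute of meiotic silencing, sms-2, lies on the minus strand of sequence 7 at positions 166762 to 170125 and codes for 989 residues in 2967 bp. The genes of this pair were closer in coding length than the polymerases, with 300 bp (qde-2 minus sms-2), a ratio of 1.10. These coding lengths exceeded 92.8% of genes for qde-2 and 90.6% for sms-2.

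The Argonaute genes also differed in introns and in their annotated 5' ends. A 5' UTR of 710 bp was annotated for qde-2, and none for sms-2, whose annotated start is its start codon. Their 3' UTRs were alike, 425 bp in qde-2 and 394 bp in sms-2. The longest exons were likewise close, 3342 bp in qde-2 and 3364 bp in sms-2. With no intron at all, sms-2 was the only single-exon gene among the 8, against 18.4% of all genes.

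Among the 8 genes, qde-2 was also the only one with several transcripts, against 9.23% of all genes. Its transcripts T0 and T1 share their first and last base, their start codon, their stop codon and an intron of 55 bp. They differ by an intron of 45 bp at positions 578471 to 578515, which is spliced out in T1 and retained in T0. It lies behind the first 54 complete codons, and T0 codes for 1089 residues and T1 for 1074, a difference of 15 residues. The annotation holds 27 genes, or 0.277%, with a pair of transcripts that differ by 1 retained coding intron and share start and stop codons. At 45 bp the intron is short for this annotation, where 35 of the 16983 introns of the longest transcripts, 0.206%, are of that length or less. That set leaves out the intron itself, since the longest transcript, T0, retains it. In the 27 genes the retained introns had a median of 75 bp, and 2 were of 45 bp or less.

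Dicer enzymes cut double-stranded RNA into small RNAs. In N. crassa either enzyme can serve quelling, with dcl-2 known to make most of the small RNAs, and dcl-1 also takes part in meiotic silencing. On the minus strand of sequence 4, dcl-1 occupies positions 2592691 to 2598157 and codes for 1584 residues in 4752 bp. On the minus strand of sequence 2, dcl-2 occupies positions 2009452 to 2015181 and codes for 1396 residues in 4188 bp. The coding lengths differed by 564 bp (dcl-1 minus dcl-2), and exceeded 98.1% of genes for dcl-1 and 97.0% for dcl-2.

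The Dicer genes differ in the number of coding parts as well as in length. The coding region of dcl-1 is divided into parts of 433, 2651 and 1668 bp, and that of dcl-2 into parts of 2644 and 1544 bp. Taken in order from the stop codon, the last parts differed by 124 bp and the parts before them by 7 bp (dcl-1 minus dcl-2), and dcl-1 has a further part of 433 bp ahead of these. The intron between the last parts is 52 bp long in dcl-1 and 50 bp long in dcl-2, and stands at 64.9% of the coding length in dcl-1 and 63.1% in dcl-2. In reading frame it differs, falling between codons in dcl-1 (phase 0) and after the first base of a codon in dcl-2 (phase 1). Whether these parts and introns match each other in the proteins, and so where the 564 bp lie, was not tested, since no N. crassa sequence was used.

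Ahead of the start codon the Dicer genes differed more. The 5' UTR measured 304 bp in dcl-1 and 970 bp in dcl-2. The one of dcl-2 exceeded 93.5% of annotated ones. The 3' UTRs measured 294 bp in dcl-1 and 308 bp in dcl-2. No intron interrupts the 5' UTR of dcl-1. That of dcl-2 contains an intron of 151 bp and an intron of 60 bp, with an exon of 43 bp between them, and 130 of all genes had 2 or more introns there. Introns included, the stretch from the annotated start to the start codon of dcl-2 covers 1181 bp.

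A RecQ DNA helicase, an enzyme that unwinds DNA in replication and repair, is encoded by qde-3, which quelling requires ahead of small RNA production. It lies on the plus strand of sequence 1 at positions 9534663 to 9542052. At 6990 bp, or 2330 residues, its coding length exceeded that of 99.6% of genes, and 41 genes had a longer one. Its coding parts measure 3888, 1431 and 1671 bp, separated by introns of 97 and 68 bp that both fall between codons. A 3' UTR of 232 bp but no 5' UTR was annotated, so its annotated start, like those of sad-1 and sms-2, is the start codon.

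The methyltransferase homologue rid, which repeat-induced point mutation requires, lies on the plus strand of sequence 1 at positions 1611869 to 1615028. It was the shortest of the 8, with 2511 bp and 837 residues, and its coding length still exceeded that of 86.0% of genes. Its 5' UTR of 62 bp was the shortest of those annotated among the 8 and longer than 5.20% of all annotated ones, and its 3' UTR of 560 bp was the longest of the 8. Its only intron, at positions 1613737 to 1613760, measures 24 bp. Of the 16983 introns in the longest transcripts of all genes, 3 are shorter and 16979 are longer. The intron begins between codons after 602 residues and its length is a multiple of 3, as in 33.7% of all coding introns. Read through, it would add 8 codons and give 2535 bp and 845 residues. Whether those codons include a stop was not tested.

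Over the group, a 5' UTR was annotated for 5 of 8 genes, against 78.7% of all genes, and a 3' UTR for 7 of 8, against 80.1%. In genes with at least 2000 bp of coding length, 87.3% had a 5' UTR and 89.4% a 3' UTR. Only sad-1 of the 8 had neither, against 16.9% of all genes, while qde-3 and sms-2 had a 3' UTR without a 5' UTR, a combination found in 4.39% of all genes. The absence of a 5' UTR fell on sad-1 and sms-2, grouped here under meiotic silencing, and on 1 of the 5 quelling genes. Of the other quelling genes, dcl-1 also takes part in meiotic silencing, and its 5' UTR measures 304 bp. For the 3 genes without a 5' UTR the annotated start marks where translation begins, and where transcription begins is not given. Among the genes that had one, the 5' UTR had a median of 710 bp in the 5 members, against 320 bp in all genes. The 3' UTR had a median of 308 bp in the 7 members, against 350 bp in all genes. With at least 2000 bp of coding length, the medians were 426 bp for the 5' UTR and 344 bp for the 3' UTR. The 5' UTRs of the members ran from 62 to 1005 bp and their 3' UTRs from 232 to 560 bp.

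The longest transcripts of the 8 genes contain 11 introns with a median of 60 bp, from 24 bp in rid to 151 bp in dcl-2, against a median of 75 bp in all genes (quartiles 62 and 112 bp). Of these introns 8 interrupt the coding region and 3 lie in the 5' UTRs of qde-1 and dcl-2. An intron in the 5' UTR was thus present in 2 of 8 genes, against 10.4% of all genes, and an intron behind the coding region in 0 of 8, against 2.88%. Only genes with an annotated 5' UTR, 5 of 8 and 78.7% of all genes, could show an intron there. In the others, intron numbers are lower limits. Of the 8 coding introns, 4 fall between codons, 3 after the first base of a codon and 1 after the second. In all genes the shares are 38.8%, 34.3% and 27.0% in the same order. The uninterrupted stretches that remain are long in bp, but not as a share of coding length. The largest uninterrupted coding part held 67.9% of the coding length at the median of the 8, against 76.4% in all genes. The longest exon measured between 1868 bp in rid and 4467 bp in qde-1, with a median of 3242 bp, against 1259 bp in all genes. It exceeded the upper quartile of all genes in 7 of 8, against 25% of all genes and 71.9% of those with at least 2000 bp of coding length.

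The room before each start sets how far a nucleosome profile can be read there without entering another gene. The 1000 bp ahead of the start were free of other genes in 6 of 8 genes, against 42.4% of all genes. Among genes with at least 2000 bp of coding length the share was 46.8%. The exceptions among the 8 were both Dicer genes. For qde-3, sad-1 and sms-2 no 5' UTR was annotated, so their window and upstream gap are counted from the start codon. Both can therefore include transcribed bases of the gene itself, and the room before these starts is an upper limit. So is the gap before rid, since its divergent upstream neighbour, NCU02035, has no annotated 5' UTR. The gap to the upstream neighbour was 1623 bp in qde-1, 1909 bp in qde-2, 1762 bp in qde-3, 1105 bp in sad-1, 3568 bp in sms-2 and 1989 bp in rid. It was 352 bp in dcl-2 and -37 bp in dcl-1, where the negative value is an overlap. The median of the 8 was 1692.5 bp, against 789 bp in all genes, and 6 of 8 lay above the all-gene median, against 49.9% of all genes.

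**Figure D3:**
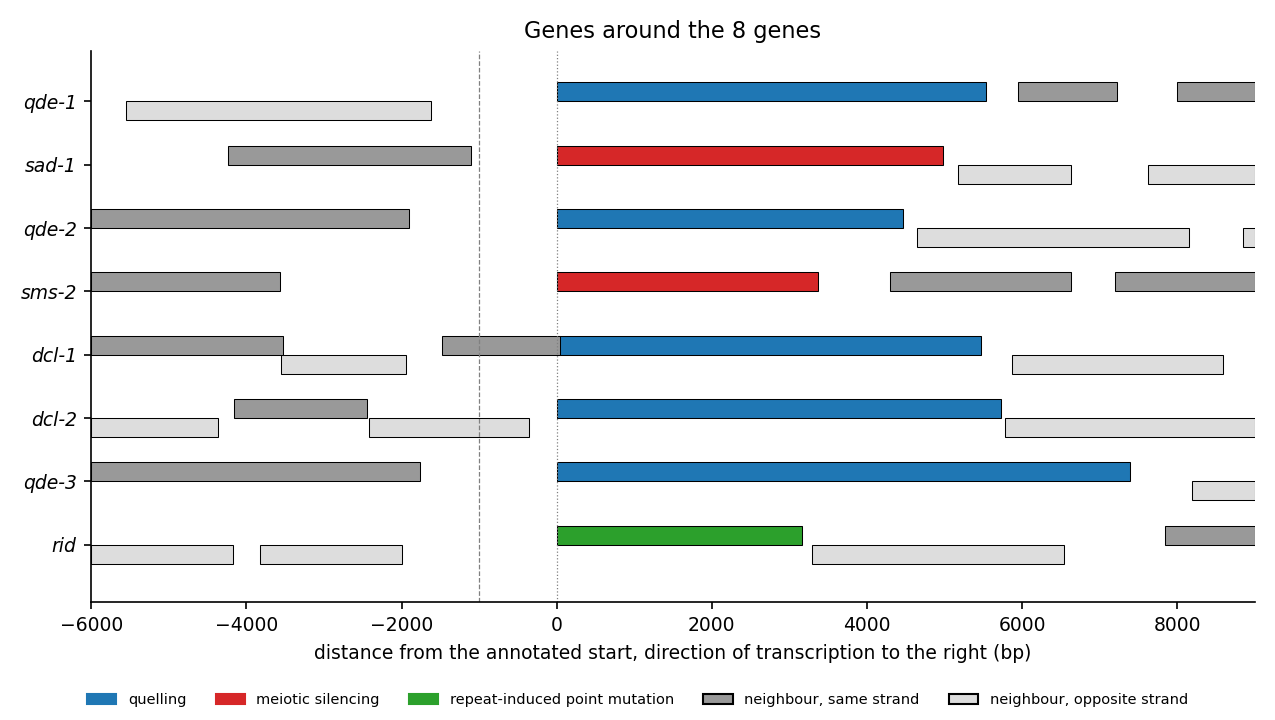
Genes around the 8 genes, drawn as the distance in bp from each annotated start, with the direction of transcription to the right. Coloured boxes are the 8 genes, dark grey boxes neighbours on the same strand and light grey boxes neighbours on the opposite strand, cut at the frame. The dotted line is the start and the dashed line stands 1000 bp before it. Neighbours of dcl-1 and dcl-2 enter that window, and for the other genes it is empty.

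The start of dcl-1 lies within the gene upstream, which applies to 2.91% of all genes. That gene, NCU08269, is transcribed from the same strand, and its 3' end overlaps the first 37 bp of dcl-1. The overlap is between the 3' UTR of NCU08269, 476 bp long, and the 5' UTR of dcl-1, since the coding spans lie 746 bp apart. Among the 8, this was the only span that overlapped a neighbour, against 22.8% of all genes. For dcl-2 the neighbour NCU06765 is on the opposite strand, so the starts face each other across 352 bp.

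Upstream neighbours were divergent, with facing starts, in 3 of 8 genes, against 55.1% of all genes. These were qde-1 with NCU07535, dcl-2 with NCU06765 and rid with NCU02035. Each pair of paralogues except the Argonautes differed here. The neighbour of qde-1 was divergent and that of sad-1, NCU02179, was in tandem on the same strand. The neighbour of dcl-1 was in tandem and that of dcl-2 was divergent. Both Argonaute genes had a tandem upstream neighbour, NCU04731 for qde-2 and NCU09435 for sms-2. The upstream neighbour of qde-3, NCU08597, was in tandem as well.

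Behind the genes the gaps were shorter. The downstream gap was 45 bp in dcl-2, 129 bp in rid, 186 bp in qde-2, 201 bp in sad-1, 397 bp in dcl-1, 403 bp in qde-1, 802 bp in qde-3 and 933 bp in sms-2. The downstream neighbours of sad-1, qde-1 and sms-2 have no annotated UTR, and sad-1 has none either. The gaps behind these genes are therefore upper limits. The median of the 8 was 299 bp, against 483 bp in all genes, and 2 of 8 lay above the all-gene median, against 49.9% of all genes. Only dcl-1 had a longer gap behind it than before it. In 7 of 8 genes the upstream gap was the longer, as in 64.2% of all genes. The downstream neighbour was convergent, with facing ends, in 6 of 8 genes, against 55.1% of all genes. In qde-1 and sms-2 it was in tandem, namely NCU16695 behind qde-1 and NCU09433 behind sms-2.

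**Figure D4:**
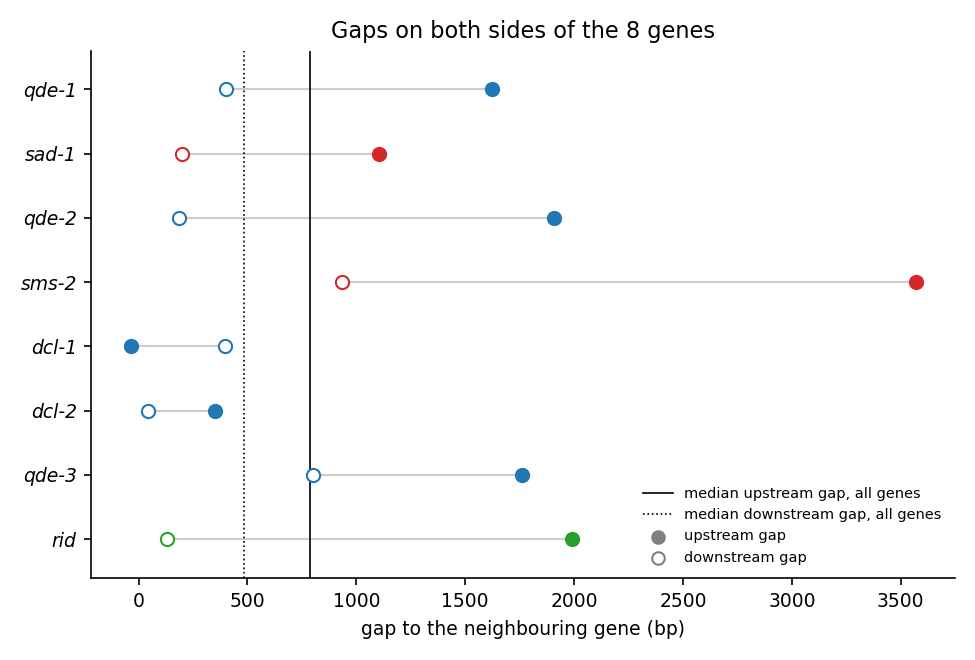
Gap in bp to the upstream neighbour (filled) and to the downstream neighbour (open) of each of the 8 genes, coloured blue for quelling, red for meiotic silencing and green for repeat-induced point mutation. Vertical lines are the all-gene medians, 789 bp upstream and 483 bp downstream. The upstream gap exceeds its all-gene median in 6 genes and falls below it in dcl-1 and dcl-2.

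Because UTRs are missing from some models, gaps were also measured between coding spans. They then came to 3272 bp before qde-1 and 1432 bp before sad-1, to 3489 bp before qde-2 and 4024 bp before sms-2, and to 746 bp before dcl-1 and 1816 bp before dcl-2. The order within each pair of paralogues was the same as between gene spans. The size of the difference was not: between gene spans it was 518 bp for qde-1 minus sad-1, -1659 bp for qde-2 minus sms-2 and -389 bp for dcl-1 minus dcl-2, and between coding spans it was 1840, -535 and -1070 bp for the same pairs.

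The 8 genes are spread over 6 of the 7 sequences. Sequence 1 carries qde-3, sad-1 and rid, and the closest pair among all 8, sad-1 and rid, lies 637395 bp apart with 152 genes between them. No pair of paralogues shares a sequence. Nearest to the last annotated gene of its sequence is qde-3, the 2296th of 2347 genes on sequence 1, with 230117 bp between it and the outermost annotated base. Nearest to a first gene is sms-2, the 48th of 1047 genes on sequence 7, at 165812 bp. The ends of the sequences themselves are not part of the annotation.

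Gene-free intervals longer than 10 kb number 213 in the annotation, and every gene of it codes for protein, so such intervals can hold repeats or other genes. An interval of this kind lay within 50 kb of 6 of 8 genes, against 45.8% of all genes. It lay 7332 bp from dcl-2, 10252 bp from dcl-1, 13219 bp from sms-2, 19433 bp from qde-3, 43123 bp from sad-1 and 45841 bp from qde-2. For qde-1 the distance was 110974 bp and for rid 184440 bp, further than in 87.7% of all genes. The number of other genes within 50 kb on either side was lowest for qde-3, at 14, a number undercut by 1.66% of genes. It was 20 for qde-2 and for sms-2, 21 for sad-1, 26 for qde-1 and for dcl-1, 28 for dcl-2 and 29 for rid, against a median of 27 in all genes. What the intervals contain was not examined.

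The other fungi of the study differ in this machinery. S. pombe has a small RNA pathway that acts on heterochromatin and has 1 gene each for the polymerase (rdp1), the Argonaute (ago1) and the Dicer (dcr1), whereas S. cerevisiae has lost the pathway. RecQ helicases are present in both yeasts, as rqh1 in S. pombe and SGS1 in S. cerevisiae. All 7 N. crassa genes with such a counterpart had the longer coding region, and paralogues share a counterpart. Over all genes, too, the median coding length was longest in N. crassa, at 1260 bp. It was 1134 bp in S. pombe and 1200 bp in S. cerevisiae. How often other N. crassa genes are longer than their counterparts was not measured. The coding region measured 4206 bp in qde-1 and 4914 bp in sad-1, against 3645 bp in rdp1. It measured 3267 bp in qde-2 and 2967 bp in sms-2, against 2502 bp in ago1. The Dicers had 4752 bp in dcl-1 and 4188 bp in dcl-2, against 4122 bp in dcr1, so dcl-2 and dcr1 were the closest of these comparisons, with a ratio of 1.02. The helicases were furthest apart, with 6990 bp in qde-3, against 3984 bp in rqh1 and 4341 bp in SGS1, ratios of 1.75 and 1.61.

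**Figure D5:**
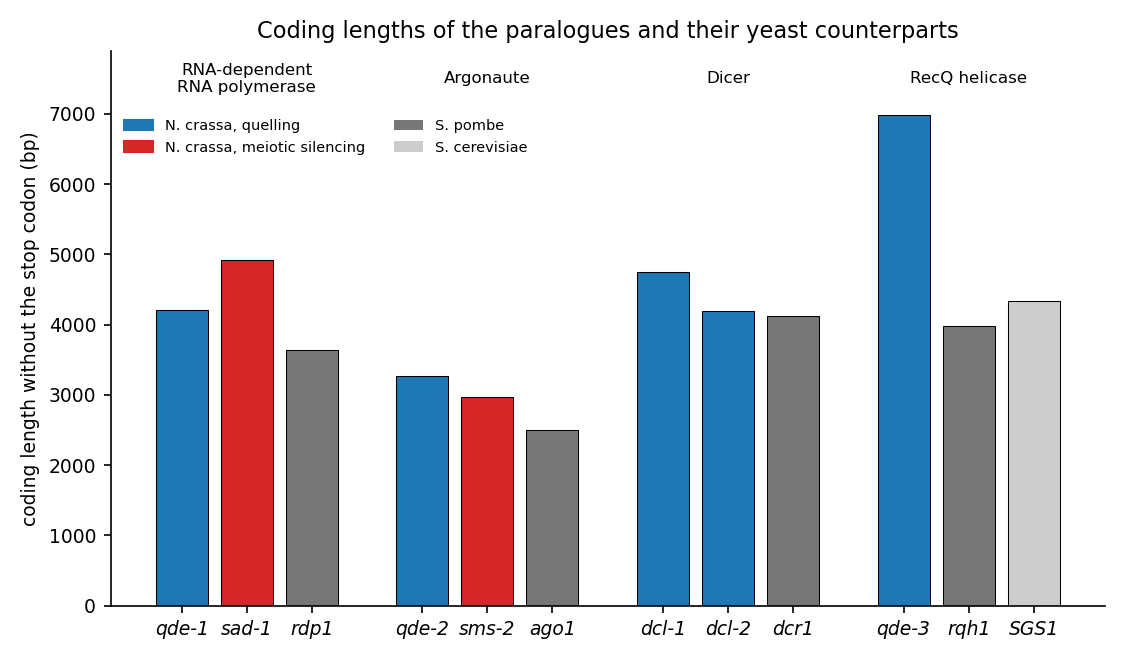
Coding length in bp, without the stop codon, of the polymerase, Argonaute, Dicer and RecQ helicase genes of N. crassa (blue for quelling, red for meiotic silencing) and of their counterparts in S. pombe (dark grey) and S. cerevisiae (light grey). Each bar is 1 annotated gene, so there are no error bars. All 7 N. crassa bars are higher than those of their counterparts, and qde-3, at 6990 bp, is the highest.

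In S. pombe, too, these genes were among the long ones. Against a median of 1134 bp over 5124 genes, the coding length exceeded that of 97.4% of genes for dcr1, 96.8% for rqh1, 95.9% for rdp1 and 88.4% for ago1. Few coding introns are usual in S. pombe, where the median gene has 1 coding part. The coding regions of dcr1, rdp1 and rqh1 are uninterrupted, as are those of 53.4% of S. pombe genes, and that of ago1 has 1 intron. Like ago1, qde-2 has 1 coding intron in T0, and sms-2 has none. SGS1 exceeded 96.7% of 6021 S. cerevisiae genes in length. Each species is represented by an annotation of its own making, and no test between species was made.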

How the data were processed

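The deposited file used is an annotation in GTF format with 81022 records. The deposited values are other than a measurement of a library: they are positions in bp, where each record begins and ends, and 0 records have a score. Per the file's source field these are NC12 gene calls, and its name says that it was fixed, without saying how. The submitters' processing notes name the tools CASAVA and Bowtie2 and the builds sacCer3, R64 and ASM294v2. No read numbers or depths belong to this file.

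Each gene was represented by its transcript with most exonic bases, and its span covered all its transcripts. UTR lengths count exonic bases and leave out the stop codon. Neighbours are adjacent genes ordered by first base. Phase is the number of bases of a codon before an intron. A percentage of genes exceeded counts the genes with a strictly lower value. Coding lengths of the counterparts, matched by symbol, came from R64 for S. cerevisiae, where the length is the coding span, and ASM294v3 for S. pombe, both less the stop codon. The S. pombe build differs from that of the notes, so no coordinates are given.

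The members, pairs and lists were chosen with earlier results of these data known. The genes named are the 8, their neighbours and any gene overlapping them or the 1000 bp before them, and the yeast counterparts. A list of 7 further pathway genes was not used, because 0 of the identifiers are named in the reference table. Nothing was tested for significance, since the annotation has no replicates. The alternatives were another choice of transcript, gaps between coding spans or on the same strand, other windows, other backgrounds and leaving out each gene. Calculations used Python 3.11.15 and NumPy 2.4.6, with figures by matplotlib 3.10.9, and were tested on simulated data.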

Additional observations from a re-analysis of the deposited data

How the results depend on the processing

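Over 17 values, 50 alternatives were run. Of these, 20 chose another transcript. They could not change a value of the 8 genes, since only qde-2 has 2 transcripts and its T0 is both the longest and the first, and they say nothing of stability. Medians were judged against the SD between single genes, a wide margin within which sizeable shifts pass. The median upstream gap of the 8 genes was 1692.5 bp, against 2404.5 bp between coding spans and 2178.5 bp with same-strand neighbours. No all-gene median is given for either alternative, so these values do not show how the 8 genes then stand against all genes. The all-gene median of introns per kb was 1.12, against 0.496 in genes with at least 2000 bp of coding length. Of the differences within the pairs, 3 moved by over 1.5 times, those in upstream gap when measured between coding spans: 1840 bp for qde-1 minus sad-1, against 518 bp, -535 bp for qde-2 minus sms-2, against -1659 bp, and -1070 bp for dcl-1 minus dcl-2, against -389 bp. Coding spans leave the UTRs out, which as annotated differ between the genes of each pair. None of the 3 changed direction. The number of clear starts was 6 with a window of 500 bp, where 62.8% of all genes are clear, and 7 with 200 bp (86.6%), with same-strand genes alone (73.6%) or with coding spans (70.8%). Leaving out each gene in turn gave a median coding length of 4188 to 4206 bp and a median upstream gap of 1623 to 1762 bp. No paired analysis was possible because the libraries' footprints were not analysed here and no result comes from a test between libraries. The annotation has no depth to limit these values.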
